A study of Mus musculus with 7 samples.

Results

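The 45 genes described here are named components and targets of the Wnt pathway, chosen by name from 34932 quantified genes, and all 45 were found in the data. RNA-seq measured them in LT-HSCs, the long-term haematopoietic stem cells of the marrow, which can renew all blood lineages. Tibia and femur marrow was sorted for cells that lack lineage markers, carry Sca-1, c-Kit and CD150, and lack CD48. There were 4 libraries from B4galt1 full knockout mice (KO; genotype B4-/-) and 3 from wild-type mice (WT), all on a mixed 129S1/C57Bl/6 background. B4galt1 encodes a galactosyltransferase of glycoprotein glycans, and as a full knockout it is lost from all cells of the mouse and not only from the stem cells. The labels give neither ages nor pooling, nor whether each replicate is its own animal, so the p-values cover the spread among these 7 libraries, which may be technical.

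Wnt proteins are secreted, lipid-modified ligands. Binding of a Wnt to a frizzled receptor and its Lrp5 or Lrp6 coreceptor stops the destruction complex of Axin, Apc and Gsk3 from marking β-catenin for degradation. β-catenin then joins TCF/LEF factors on DNA and target genes such as Axin2, Nkd1 and Sp5 are switched on, several of which damp the pathway in turn. Other receptors, such as Ryk and Ror2, and the planar cell polarity proteins carry Wnt signals that do not need β-catenin. In mouse blood the pathway is known for effects on stem cell self-renewal that depend on its dose.

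The promoters of 4 genes are shown because the results turn on them: Axin2 and Sp5, classical feedback targets that were at or close to 0 reads here, Fzd7, a receptor whose groups did not overlap, and Ryk, a receptor that passed the test. Each is the 250 bases before the RefSeq start on GRCm38.p6, plus strand, at chr11:108920099-108920348 (Axin2), chr2:70474673-70474922 (Sp5), chr1:59481897-59482146 (Fzd7) and chr9:102834670-102834919 (Ryk). Capitals mark the TCF/LEF recognition word CTTTGNN with A or T at both N, searched on both strands, and no other motif was searched.
Axin2: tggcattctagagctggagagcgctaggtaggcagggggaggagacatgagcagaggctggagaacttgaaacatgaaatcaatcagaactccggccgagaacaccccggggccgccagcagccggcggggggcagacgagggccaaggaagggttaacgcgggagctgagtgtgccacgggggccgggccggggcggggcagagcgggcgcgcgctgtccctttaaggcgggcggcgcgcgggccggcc
Sp5: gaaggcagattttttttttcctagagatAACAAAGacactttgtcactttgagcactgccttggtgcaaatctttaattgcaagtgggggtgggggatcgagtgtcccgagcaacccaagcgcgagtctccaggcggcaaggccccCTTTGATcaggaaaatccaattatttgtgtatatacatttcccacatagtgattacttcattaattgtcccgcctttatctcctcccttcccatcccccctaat
Fzd7: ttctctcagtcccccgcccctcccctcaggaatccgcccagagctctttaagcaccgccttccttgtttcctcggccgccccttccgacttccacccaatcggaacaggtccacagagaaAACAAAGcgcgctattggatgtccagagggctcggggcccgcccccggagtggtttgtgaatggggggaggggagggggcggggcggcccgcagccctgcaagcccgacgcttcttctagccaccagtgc
Ryk: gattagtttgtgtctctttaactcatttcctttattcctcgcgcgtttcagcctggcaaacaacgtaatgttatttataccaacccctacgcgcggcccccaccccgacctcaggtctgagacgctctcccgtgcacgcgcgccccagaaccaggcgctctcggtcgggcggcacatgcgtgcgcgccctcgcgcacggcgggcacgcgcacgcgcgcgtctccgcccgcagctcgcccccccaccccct
Sp5 held a word beginning 222 and another beginning 104 bases before its start, Fzd7 held 1 beginning 130 bases before it, and no such letters were in the windows of Axin2 and Ryk. Of all 32851 RefSeq windows of this length, 14.8% held at least 1 of these words. Windows were found for 28 of the 45 members, and 5 of their 41 windows, 12.2%, held a word. A match describes letters only.

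The libraries held 23508985 to 34941390 estimated reads. Levels are given as CPM, reads of each library brought to the same total and corrected for composition, which compare libraries, or as TPM, the deposited per-length values, which compare genes. B4galt1 RNA, the check on the labels, was at 14.6 to 19.3 CPM in KO and 11.3 to 24.4 CPM in WT (log2 fold change -0.20, SE 0.27, edgeR adjusted p = 0.758), and a count over the whole gene cannot tell a truncated transcript from an intact one. The LT-HSC markers were present, with Slamf1, which encodes CD150, at 67.8 to 112.0 CPM in KO and 72.5 to 128.4 CPM in WT, and 1 of 13, Mllt3, fell. Of 12 megakaryocyte and platelet markers 11 fell, with a summed level of 1039 to 1962 CPM in KO and 5230 to 11692 CPM in WT. Mast cell and basophil markers summed to 348.0 to 1272 CPM in KO and 14.4 to 309.7 CPM in WT, with 2 of 8 tested higher, Fcer1a and Hdc. Of the lymphocyte, stromal and endothelial markers, Cd3e reached at most 0.195 CPM and Pax5, Igll1, Cdh5 and Col3a1 had 0 reads in all libraries. Others were detected, led by Cd79b at 47.6 to 64.5 CPM in KO and 61.5 to 68.2 CPM in WT, Runx2 at 25.2 to 63.3 CPM in KO and 42.4 to 67.3 CPM in WT, Emcn at 23.4 to 35.4 CPM in KO and 26.7 to 51.2 CPM in WT and Lck at 9.91 to 21.6 CPM in KO and 8.80 to 10.4 CPM in WT. The summed levels overlapped between the groups for T cell (18.1 to 29.6 CPM in KO, 15.7 to 21.2 CPM in WT, 0 of 8 tested called), B cell (54.2 to 71.7 CPM in KO, 64.7 to 72.8 CPM in WT, 0 of 8), erythroid (328.9 to 1780 CPM in KO, 234.2 to 1150 CPM in WT, 0 of 11) and stromal and endothelial markers (70.0 to 111.1 CPM in KO, 84.9 to 138.1 CPM in WT, 1 of 7 higher, Sparc). Most of the B cell sum was Cd79b. Of the 8 B cell genes tested, 4 had log2 fold changes above 0 and 4 below. Dntt, Rag2 and Vpreb1 were higher without overlap (3.40, 1.72 and 0.67). Of the 11 erythroid genes, 8 lay above 0 and 3 below, with Hba-a1 and Hba-a2 lower without overlap (-5.06 and -4.14). Granulocyte and monocyte markers, at 602.5 to 754.5 CPM in KO and 756.5 to 892.2 CPM in WT, did not overlap, with 1 of 11 lower, S100a9. Lyz2 led this sum, at 462.1 to 574.1 CPM in KO and 650.9 to 796.1 CPM in WT. The list was mixed, with 5 of the 11 log2 fold changes above 0 and 6 below. Mpo was higher without overlap, at 21.8 to 74.8 CPM in KO and 3.56 to 13.6 CPM in WT (log2 fold change 2.48, edgeR adjusted p = 0.0509). The 4 Y-linked genes Ddx3y, Eif2s3y, Kdm5d and Uty summed to 10.9 CPM in KO replicate 4 and 6.04 CPM in WT replicate 3, and to 255.7 to 364.6 CPM in the other 5 libraries, so Sfrp1, Ryk, Rac1, Ccnd1 and Jun are also given for those 5. In bulk samples, fewer cells of a type and less RNA per cell cannot be told apart.

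None of the 45 genes passed the test between KO and WT. Of the 45 members, 35 had enough reads to be tested, and edgeR called 0 higher and 0 lower at an adjusted p below 0.05, against 2.26% called among all 14695 genes tested (0.599% higher and 1.66% lower). Before adjustment, 2 members were higher and 3 lower at p below 0.05, where all genes gave 14.6% (7.42% higher and 7.21% lower). DESeq2 and limma voom each called 1 member, Sfrp1, lower, and 0 higher. Of all genes DESeq2 called 5.66% (2.27% higher and 3.39% lower) and limma voom 4.82% (1.83% higher and 2.99% lower). KO and WT did not overlap for 4 of the 35, 2 higher and 2 lower, where 15.7% of all genes showed this (8.23% higher and 7.47% lower), so the members' share lay near the background. The median log2 fold change was -0.20 over the 35 and 0.03 over all genes tested, and 24 of the 35, 68.6%, lay below 0, as did 47.3% of all genes. With an offset for transcript length the median of the members was -0.07 and 19 lay below 0. Over the 16 alternatives the median ran from -0.29, in the 5 libraries with high Y-linked expression, to -0.07, and the number below 0 from 19 to 28, the highest without WT replicate 3; without WT replicate 2 the median was -0.09, and without KO replicate 4 it was -0.10. For 16 members the 95% interval of the difference lay within 2-fold either way, as for 55.0% of all genes: Ctnnb1, Wls, Lrp6, Fzd3, Gsk3b, Apc, Dvl1, Dvl2, Dvl3, Tcf7l2, Tle1, Tle4, Bcl9, Bcl9l, Pygo2 and Znrf3. With the length offset the intervals of Bcl9 (0.51 to 1.89) and Apc (0.29 to 1.14) reached beyond 2-fold. For the other 19 a 2-fold difference lay inside the interval.

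**Figure D1:**
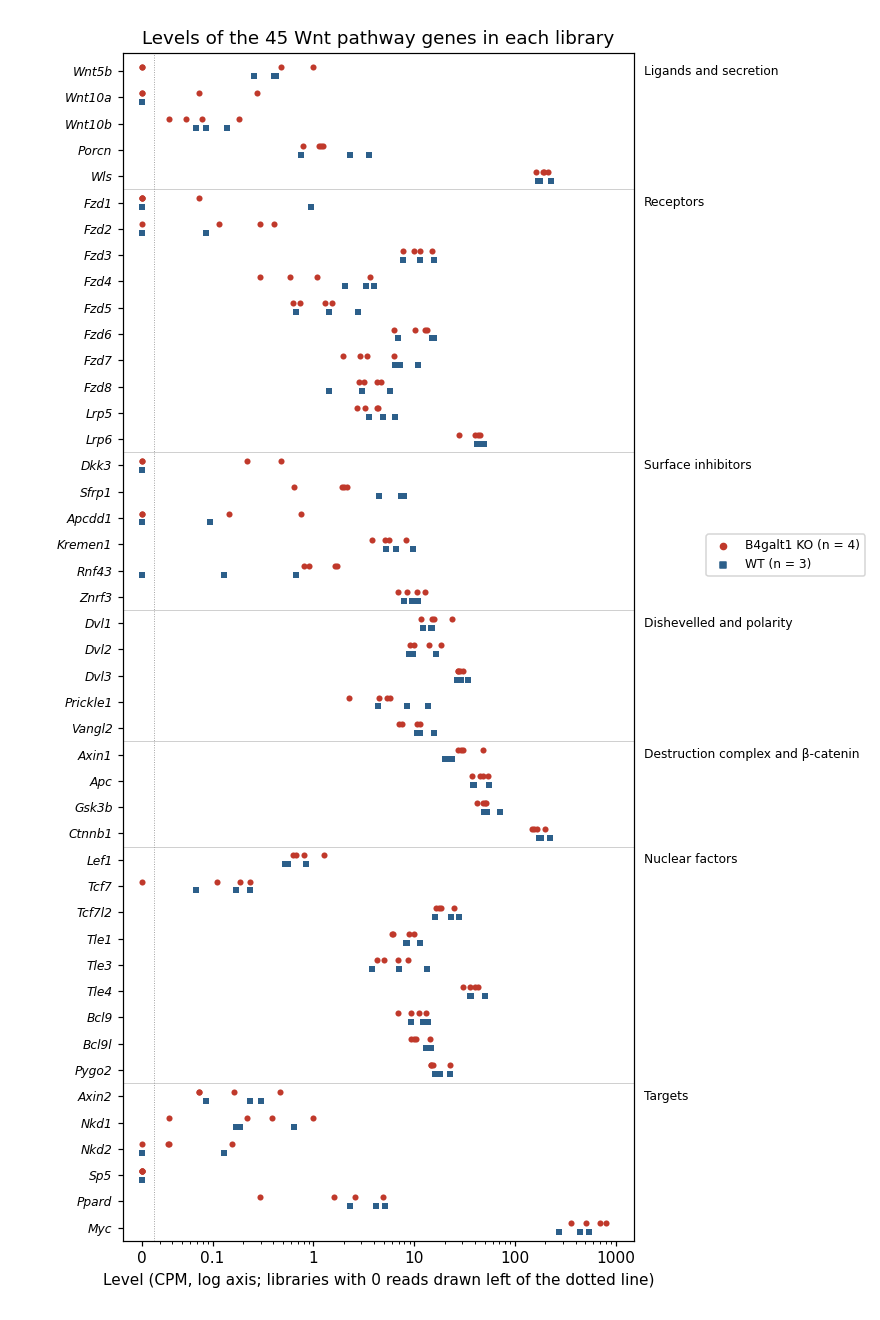
Level of each of the 45 genes in every library, in CPM on a log axis with 0 drawn at the left edge, ordered by role; red circles are the 4 KO libraries and blue squares the 3 WT libraries. Myc, Wls and Ctnnb1 lie above 100 CPM in all libraries, while Axin2, Nkd2, Tcf7 and Wnt10b lie below 1 CPM and Sp5 is at 0.

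**Figure D2:**
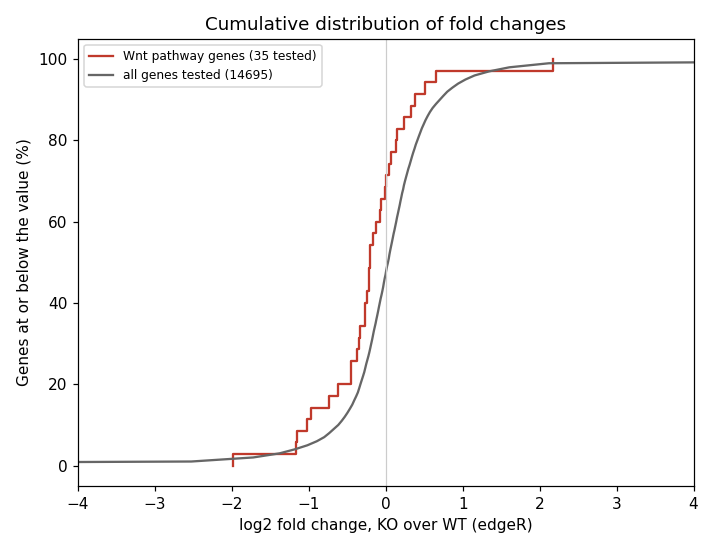
Cumulative share of genes (vertical axis, percent) at or below each log2 fold change of KO over WT (horizontal axis) for the 35 tested Wnt pathway genes (red) and all 14695 tested genes (grey). The medians are -0.20 and 0.03.

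Ligand genes were almost silent in the sorted cells, while the machinery that carries a Wnt to the surface was not. All 19 Wnt ligand genes together summed to 1.24, 1.47, 1.25 and 1.01 TPM in KO replicates 1 to 4, against 0.926, 1.96 and 1.00 TPM in WT replicates 1 to 3, and 4 of the 19 had 0 reads in all libraries. The sums overlapped between the groups. Of the member ligands, Wnt5b reached 0.998 CPM in KO replicate 2 and 0.422 CPM in WT replicate 2, with 0 reads in KO replicates 1 and 4. Wnt10a and Wnt10b were too low to test, at no more than 0.273 CPM in any library. Wls, the carrier that takes finished Wnts to the cell surface, was among the most abundant members. Its level was 163.0, 190.7, 191.9 and 210.4 CPM across KO replicates 1 to 4, against 177.1, 167.1 and 227.2 CPM in WT replicates 1 to 3. The groups overlapped throughout (log2 fold change -0.01, 95% interval -0.37 to 0.35). Porcn, the enzyme that attaches the lipid to Wnts, was at 1.25, 1.18, 1.13 and 0.783 CPM in KO and 3.60, 0.750 and 2.29 CPM in WT, so WT replicate 2 lay below all KO libraries and the groups overlapped (log2 fold change -1.03, SE 0.55, adjusted p = 0.432). The R-spondins, secreted proteins that raise frizzled levels and are not among the 45, summed to 0.0552 to 0.522 TPM in KO and 0 to 0.319 TPM in WT.

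Among receptors, on the per-length scale and with all transcripts of a gene counted, Lrp6 exceeded Lrp5 in all libraries. On the same count Fzd6 was the highest frizzled in 6 of 7 libraries. In WT replicate 2 Fzd7, at 2.27 TPM, lay above Fzd6, at 1.77 TPM. Lrp6 had a median of 14.4 TPM over the 7 libraries and Lrp5 1.18 TPM. Over these libraries, retained-intron transcripts held 67.7% to 80.4% of Lrp6 TPM and coding transcripts 19.6% to 32.3%. Coding transcripts held 6.03% to 67.9% of Lrp5 TPM. Lrp6 was at 45.4, 40.0, 43.2 and 28.1 CPM in KO and 42.4, 45.1 and 49.3 CPM in WT, with KO replicate 4 lowest and the groups overlapping (log2 fold change -0.22, 95% interval -0.65 to 0.21). Lrp5 was at 4.33, 3.25, 4.28 and 2.73 CPM in KO and 6.42, 4.92 and 3.58 CPM in WT, which overlap (log2 fold change -0.45, SE 0.35). The 10 frizzled genes summed to 8.46 to 9.15 TPM in KO and 8.92 to 9.45 TPM in WT, which overlap. Summed as CPM, in which long transcripts weigh more, they gave 25.9 to 37.2 CPM in KO and 39.1 to 48.6 CPM in WT, which do not overlap. The share of frizzled TPM from Fzd6 was 40.0% to 55.4% in KO and 18.8% to 43.0% in WT. Transcripts annotated with a retained intron held 27.7% to 46.4% of Fzd6 TPM in KO and 2.04% to 29.5% in WT. Coding transcripts held 45.8% to 72.3% of it in KO and 70.5% to 98.0% in WT. The summed TPM and the Fzd6 share count both kinds, and the part of this division in them was not tested.

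Fzd7 (chromosome 1, 59482424 to 59486955, plus strand, GRCm38) was the frizzled with non-overlapping groups. KO replicates 1 to 4 had 6.32, 2.92, 3.40 and 1.97 CPM, against 6.39, 10.9 and 7.29 CPM in WT replicates 1 to 3. KO replicate 1 came within 0.1 CPM of WT replicate 1, and the other KO libraries were lower than all WT libraries. The log2 fold change was -1.16 (SE 0.41, 95% interval -2.08 to -0.25) and did not pass (edgeR adjusted p = 0.219; 0.0757 with DESeq2). Fzd4 was at 0.585, 0.296, 3.62 and 1.08 CPM in KO and 3.29, 2.06 and 3.97 CPM in WT, with KO replicate 3 inside the WT range (log2 fold change -1.15, SE 0.73, adjusted p = 0.50). Fzd3, Fzd5, Fzd6 and Fzd8 overlapped between the groups, with log2 fold changes from -0.62 to 0.14, and Fzd1 and Fzd2 were too low to test, at no more than 0.937 CPM in any library.

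Of the inhibitors that act outside or at the surface of the cell, Sfrp1 stood closest to the threshold of the test. Sfrp1 (chromosome 8, 23411502 to 23449632, plus strand) encodes a secreted protein that binds Wnts and frizzleds. KO replicates 1 to 4 had 1.91, 2.00, 2.16 and 0.648 CPM, against 4.45, 7.45 and 7.93 CPM in WT replicates 1 to 3. Every KO library lay below every WT library, and KO replicate 4 was lowest. The mean was 1.68 ± 0.694 CPM in KO (SD, n = 4) and 6.61 ± 1.89 CPM in WT (SD, n = 3). The log2 fold change was -1.98 (SE 0.45, 95% interval -2.98 to -0.98), and edgeR gave an adjusted p of 0.0517, just outside the threshold. It passed in 6 of 16 alternatives, among them DESeq2 (adjusted p = 0.000587), limma voom (0.0227) and the data without KO replicate 4 (-1.70, 0.0351), and its adjusted p ran from 0.000587 to 0.152 over them. Among the 5 libraries with high Y-linked expression it was at -1.54 (adjusted p = 0.0968). Sfrp1 is also known from marrow stroma. In the stromal and endothelial list, whose sums overlapped, Cdh5 and Col3a1 had 0 reads and Cxcl12 at most 0.585 CPM. Col1a2 was at 3.25 to 8.08 CPM in KO and 4.28 to 13.9 CPM in WT, and Kdr at 0.475 to 2.34 CPM in KO and 3.70 to 4.62 CPM in WT, without overlap. Sparc went the other way and passed, at 2.38 to 8.85 CPM in KO and 0.577 to 0.862 CPM in WT (log2 fold change 2.99, edgeR adjusted p = 0.0131). Pdgfrb was at 3.51 to 7.83 CPM in KO and 2.75 to 3.62 CPM in WT, which overlap. Of the 7 genes of this list that were tested, 2 lay above 0 and 5 below. The part of these markers in the Sfrp1 values was not tested.

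Rnf43, a surface ubiquitin ligase that removes frizzleds, was at 0.898, 0.813, 1.65 and 1.73 CPM in KO and 0.679, 0 and 0.129 CPM in WT. All KO libraries lay above all WT libraries in reads of the whole gene, at a level of 177 reads over the 7 libraries. Coding transcripts held 73.9%, 100%, 100% and 28.7% of these reads in KO replicates 1 to 4, against 95% and 100% in WT replicates 1 and 3. The log2 fold change of 2.17 (SE 0.95, 95% interval 0.06 to 4.27) did not pass (adjusted p = 0.328) and was 4.15 without WT replicate 1. Its relative Znrf3, with the same function, was at 6.91 to 12.9 CPM in KO and 7.98 to 11.0 CPM in WT, which overlap (0.04, 95% interval -0.58 to 0.67). Kremen1, a receptor for Dickkopf proteins, was at 3.84 to 8.35 CPM in KO and 5.30 to 9.84 CPM in WT, which also overlap (log2 fold change -0.34, SE 0.35). Dkk3 had 19 reads and Apcdd1, a membrane inhibitor, 34 reads over all libraries, too few to test.

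**Figure D3:**
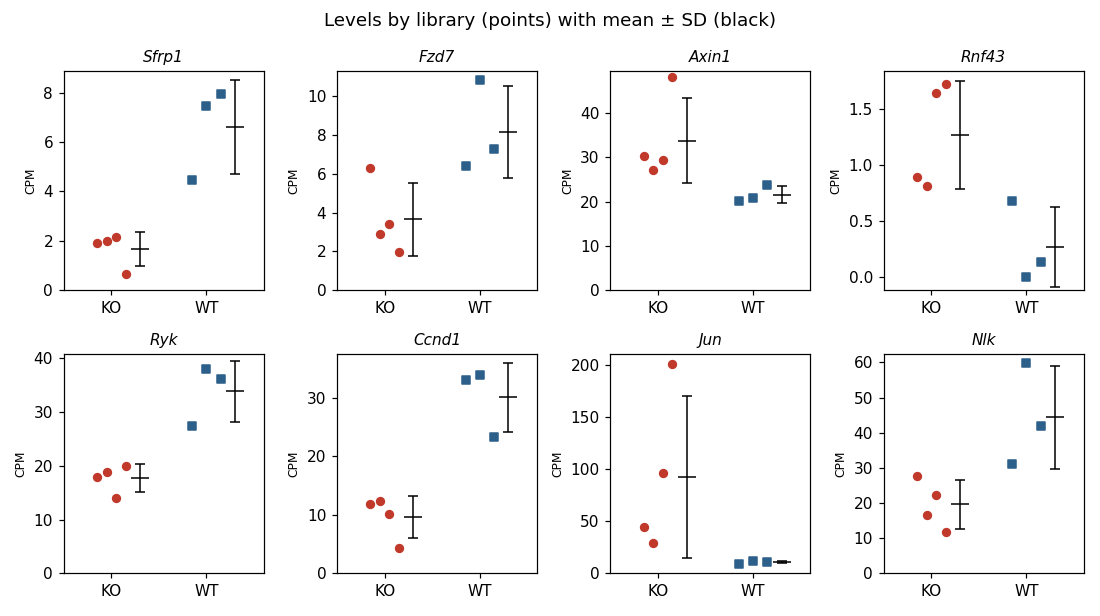
Level in CPM (vertical axes) by library for 4 members whose groups did not overlap (upper row) and 4 other pathway genes (lower row), KO left and WT right, with mean ± SD in black beside the points. Sfrp1 is at 0.648 to 2.16 CPM in KO and 4.45 to 7.93 CPM in WT, while Fzd7 almost touches between the groups.

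Within the destruction complex, Axin1, the scaffold that brings its parts together, was higher in every KO library without passing the test. Axin1 (chromosome 17, 26138688 to 26195811, plus strand) had 30.2, 27.2, 29.4 and 48.1 CPM in KO replicates 1 to 4, against 20.1, 20.8 and 23.8 CPM in WT replicates 1 to 3. KO replicate 4 stood apart above the other KO libraries, and the groups did not overlap with or without it. The log2 fold change was 0.65 (SE 0.23, 95% interval 0.14 to 1.16, adjusted p = 0.225). Without KO replicate 4 the log2 fold change was 0.44 (adjusted p = 0.289). Gsk3b, the kinase that marks β-catenin, was at 51.2, 42.1, 50.7 and 47.8 CPM in KO and 53.2, 70.6 and 49.0 CPM in WT, with WT replicate 2 highest and the groups overlapping (log2 fold change -0.26, SE 0.17). Apc, the second scaffold, was at 37.9 to 54.2 CPM in KO and 38.4 to 55.0 CPM in WT (0.07, 95% interval -0.36 to 0.50). Ctnnb1, which encodes β-catenin, was at 155.8, 165.7, 147.9 and 200.0 CPM in KO and 180.3, 223.7 and 174.4 CPM in WT. KO replicate 4 lay inside the WT range and the other KO libraries below it, and the interval of the difference stayed within 2-fold (log2 fold change -0.20, 95% interval -0.57 to 0.16).

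The dishevelled proteins pass the signal on from frizzled, and all 3 genes overlapped between the groups. Dvl3 was at 27.2 to 30.5 CPM in KO and 26.4 to 33.9 CPM in WT (log2 fold change -0.07, 95% interval -0.45 to 0.32). Dvl1 was at 11.7 to 23.8 CPM in KO and 12.3 to 15.1 CPM in WT, with KO replicate 4 highest (0.23, SE 0.26), and Dvl2 gave 0.14 (SE 0.32). These are reads of the whole gene. Retained-intron transcripts held 16.4% to 100% of Dvl1 reads in KO, lowest in KO replicate 4, and 53.8% to 100% in WT. The planar polarity genes were Prickle1, at 4.45, 5.80, 2.27 and 5.43 CPM in KO and 4.42, 13.6 and 8.41 CPM in WT, and Vangl2, at 10.7, 11.4, 7.61 and 7.08 CPM in KO and 11.3, 15.6 and 10.8 CPM in WT. In both, WT replicate 2 was highest and the groups overlapped. Prickle1 gave -0.97 (SE 0.43, adjusted p = 0.335) and Vangl2 -0.45 (SE 0.27, adjusted p = 0.480).

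**Figure D4:**
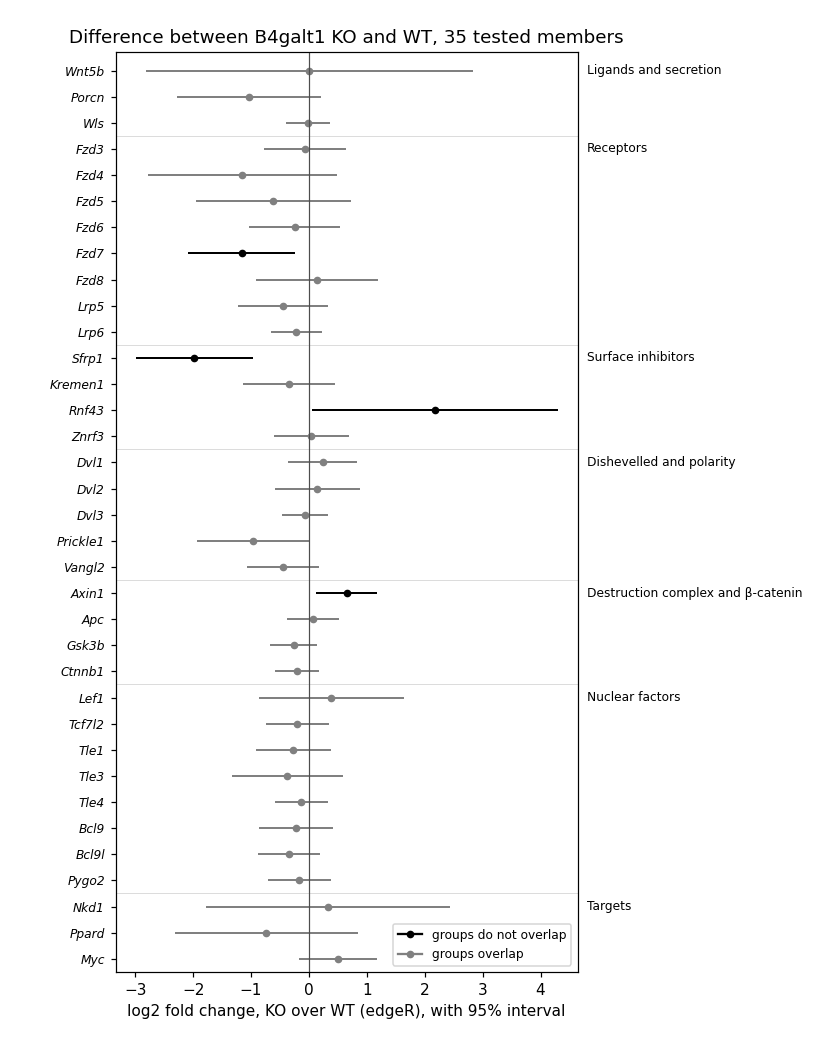
Log2 fold change of KO over WT from edgeR (points) with its 95% interval (lines) for the 35 tested members, by role; black marks the 4 whose groups do not overlap, grey the others. Sfrp1 is lowest at -1.98 and Rnf43 highest at 2.17, and intervals are wide for genes of few reads such as Wnt5b and Nkd1.

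Tcf7l2 was the TCF/LEF factor of these cells by RNA. On the per-length scale it gave 88.5% to 96.5% of the summed TPM of Tcf7, Lef1, Tcf7l1 and Tcf7l2 in KO and 85.3% to 94.1% in WT, and the sums were 8.18 to 12.3 TPM in KO and 6.39 to 9.95 TPM in WT. Tcf7l2 was at 18.6, 17.7, 24.8 and 16.4 CPM in KO and 16.2 to 27.6 CPM in WT, with each group's libraries spread over the other's (log2 fold change -0.20, 95% interval -0.73 to 0.33). Lef1 was at 0.621 to 1.29 CPM in KO and 0.517 to 0.849 CPM in WT (0.38, SE 0.56), and Tcf7, the factor best known from T cells, had 27 reads in all and was not tested. The co-repressor Tle4 was at 30.3 to 42.5 CPM in KO and 35.5 to 50.5 CPM in WT (log2 fold change -0.13, SE 0.20), and Tle1 and Tle3 gave -0.27 (SE 0.29) and -0.37 (SE 0.42). Bcl9 and Bcl9l, adaptors that link β-catenin to the chromatin reader Pygo2, gave -0.22 (SE 0.28) and -0.34 (SE 0.23), and Pygo2 gave -0.16 (SE 0.24). With the length offset Bcl9 was at 1.20 (SE 0.31, adjusted p = 0.0683), on the other side of 0. Bcl9l was at 14.3, 9.91, 10.5 and 9.21 CPM in KO and 14.6, 14.0 and 13.0 CPM in WT, so KO replicate 1 was the single KO library inside the WT range.

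The feedback targets Sp5, Axin2, Nkd1 and Nkd2 gave little or no RNA in either group. Sp5, a transcription factor, had 0 reads in all 7 libraries, and the limit of 3 reads that a count of 0 allows is 0.0810 to 0.117 CPM in KO and 0.102 to 0.141 CPM in WT, for counting error only. Axin2 was at 0.468, 0.0739, 0.0731 and 0.162 CPM in KO and 0.306, 0.234 and 0.0862 CPM in WT, or 38 reads in all. The groups overlapped. Axin2-203, a transcript annotated without a coding sequence, held 100% of the Axin2 reads in KO replicates 1 and 3 and WT replicates 1 and 3, and coding transcripts held 100% in KO replicates 2 and 4 and WT replicate 2. Nkd1 and Nkd2, which bind dishevelled and damp the pathway, had 78 and 9 reads, and Nkd1, which was tested, gave 0.32 (SE 0.94). At this depth a difference in these targets was not detectable.

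Myc and Ppard are targets that also answer to other signals. Myc was the most abundant member, with a median of 297.1 TPM. KO replicates 1 to 4 had 358.4, 689.5, 510.4 and 802.0 CPM, against 438.7, 272.0 and 536.8 CPM in WT replicates 1 to 3. KO replicates 1 and 3 lay inside the WT range and KO replicates 2 and 4 above it. The log2 fold change of 0.50 (SE 0.30, 95% interval -0.15 to 1.16) did not pass (adjusted p = 0.469). Ppard, a nuclear receptor, was at 4.92, 1.59, 2.60 and 0.297 CPM in KO, with replicate 4 below the Nkd1 level of that library, and 4.21, 5.15 and 2.33 CPM in WT, which overlap (-0.74, SE 0.70).

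For β-catenin and the TCF/LEF factors, the division of reads among annotated transcripts is shown because transcripts differ in whether they code for the full protein. These are Salmon's estimates for transcripts that share most of their sequence, and no test was made. Coding transcripts held 22.4%, 37.9%, 29.1% and 73.6% of Ctnnb1 reads in KO replicates 1 to 4, against 29.9%, 10.4% and 34.3% in WT replicates 1 to 3. Most other Ctnnb1 reads were assigned to Ctnnb1-215, a retained-intron transcript of 1292 nt (chromosome 9, 120959216 to 120960507) that ends at the same base as the full coding transcript Ctnnb1-201 of 3623 nt. KO replicate 4 was the library with the highest coding share, and the other 6 lay between 10.4% and 37.9%. For Tcf7l2 the coding share was 64.0% to 80.7% in KO and 74.4% to 89.9% in WT, and for Lef1 8.89% to 43.9% in KO and 8.62% to 40.0% in WT, so both overlapped. Bcl9, Gsk3b and Tle3, chosen among the members after their values were seen, had coding shares that did not overlap. The share of all genes that show this was not counted, so these 3 are given as values only. For Bcl9, coding transcripts held 77.5%, 58.1%, 69.2% and 35.6% of its reads in KO and 85.4%, 98.1% and 86.8% in WT, with all KO libraries below all WT libraries. Gsk3b was also lower in KO, at 78.1% to 92.0%, against 92.3% to 93.8% in WT, and Tle3 was higher in KO, at 93.3% to 97.2%, against 88.8% to 90.5% in WT. For Gsk3b the groups almost touched, with KO replicate 2 at 92.01% and WT replicate 1 at 92.28%. Over all genes, retained-intron transcripts took 4.49% to 5.23% of reads in KO and 3.69% to 4.05% in WT, which also do not overlap, and the part of this difference in these shares was not tested.

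**Figure D5:**
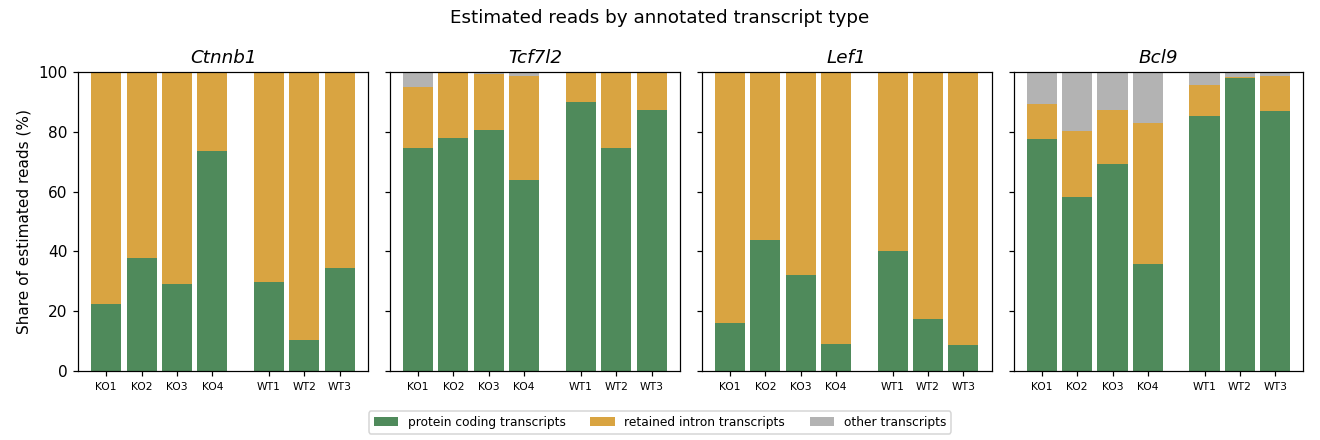
Share of each gene's estimated reads (vertical axis, percent) on transcripts annotated as protein coding (green), retained intron (yellow) or other (grey) in each KO and WT library. In Bcl9 the coding share is 35.6% to 77.5% in KO and 85.4% to 98.1% in WT, while in Ctnnb1, Tcf7l2 and Lef1 the groups overlap.

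The other genes of the pathway were taken from a list of 115 names, of which 114 were quantified and 72 tested. Of these, 1 rose, Jun, and 2 fell, Ryk and Ccnd1, against 0.599% and 1.66% of all genes. DESeq2 called 1 higher and 7 lower (2.27% and 3.39% of all genes), and limma voom 1 higher and 6 lower (1.83% and 2.99%). Groups did not overlap for 13 of the 72, 4 higher and 9 lower. Among all genes 15.7% showed this, 8.23% higher and 7.47% lower. The share for both directions together lay near the background, while more of the 13 were lower than higher. The 7 genes called lower by DESeq2 were Ryk, Ror2, Rac1, Daam1, Nlk, Ccnd1 and Abcb1a.

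Ryk (chromosome 9, 102834917 to 102908305, plus strand), a receptor that binds Wnts through a WIF domain, had 18.0, 18.8, 14.0 and 20.0 CPM in KO replicates 1 to 4, against 27.4, 38.0 and 36.1 CPM in WT replicates 1 to 3. All KO libraries lay below all WT libraries. The mean fell to 17.7 ± 2.57 CPM in KO (SD, n = 4), against 33.8 ± 5.68 CPM in WT (SD, n = 3), a log2 fold change of -0.93 (SE 0.20, edgeR adjusted p = 0.0424). The call was lost with any of KO replicates 1 to 3 or WT replicates 1 to 3 left out (adjusted p from 0.0525 to 0.128, log2 fold change from -1.08 to -0.84) and among the 5 libraries with high Y-linked expression (-0.93, adjusted p = 0.0796). Ror2, a receptor of Wnt5a, was at 0.351, 0.111, 0.475 and 0 CPM in KO and 1.02, 4.40 and 1.03 CPM in WT, without overlap (log2 fold change -3.20, SE 1.00, edgeR adjusted p = 0.159, DESeq2 adjusted p = 0.0272).

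Of the mediators named by the rule, Rac1, a small GTPase, was at 363.9 to 454.0 CPM in KO and 600.5 to 699.1 CPM in WT, without overlap (log2 fold change -0.65, SE 0.15, edgeR adjusted p = 0.0510). Daam1, a formin that binds dishevelled, was at 2.95 to 10.7 CPM in KO and 11.0 to 24.9 CPM in WT, also without overlap (-1.49, SE 0.42, adjusted p = 0.111). Nlk, a kinase that phosphorylates TCF/LEF factors, was at 11.7 to 27.6 CPM in KO and 31.2 to 60.0 CPM in WT (-1.18, SE 0.31, adjusted p = 0.0886), again without overlap. DESeq2 called these 3 lower (adjusted p = 0.000358, 0.0106 and 0.00724). Cxxc5, an inhibitor that binds dishevelled, gave -0.47 (SE 0.17), Fbxw11, a subunit of the ligase that degrades β-catenin, -0.49 (SE 0.20), and the repressor Hbp1 0.49 (SE 0.23), and none passed. Wnt4, Wnt6, Dkk1 and Kremen2 were at no more than 1.43 CPM in any library and did not pass either. With 1 library left out, edgeR called Rac1 lower without KO replicate 4 (adjusted p = 0.0423) and Daam1 without KO replicate 1 (-1.88, adjusted p = 0.0405). Megakaryocyte and platelet markers, lower in all KO libraries as given above, moved with Sfrp1, Fzd7, Ryk, Ror2, Rac1, Daam1, Nlk and Ccnd1, and their part in these values was not tested. Among the 5 libraries with high Y-linked expression Rac1 was at -0.63 (adjusted p = 0.0965).

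Ccnd1, the cyclin D1 gene and a classical β-catenin target, was at 11.8, 12.3, 10.1 and 4.35 CPM in KO and 33.0, 33.9 and 23.4 CPM in WT. All KO libraries lay below all WT libraries (log2 fold change -1.64, SE 0.33, adjusted p = 0.0291). The call was lost without KO replicate 2 or 3 or WT replicate 1 or 2 (adjusted p from 0.0559 to 0.108) and with the length offset (-0.98, adjusted p = 0.221). It held among the 5 libraries with high Y-linked expression (-1.54, adjusted p = 0.00578). Jun, an AP-1 factor that answers to many signals, was at 44.3, 29.5, 96.1 and 200.8 CPM in KO and 9.48, 11.9 and 11.0 CPM in WT (3.11, SE 0.59, adjusted p = 0.0218). Its call was lost without any 1 of the WT libraries (adjusted p from 0.0911 to 0.11), and without KO replicate 4 the log2 fold change was 2.41. Among the 5 libraries with high Y-linked expression it was 2.43 (adjusted p = 0.0335). The 2 targets stood on opposite sides of WT while Axin2, Nkd2 and Sp5 were close to or at 0 reads in both groups.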

How the data were processed

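Bulk RNA-seq of sorted LT-HSCs was compared between 4 KO and 3 WT libraries, grouped and numbered by their titles. Libraries were made with the SMART-Seq v4 kit, per the labels' protocols, which does not mark strand, so reads of genes overlapping on opposite strands, such as Ctnnb1 with Ulk4, Dvl2 with Acadvl and Wnt5b with Fbxl14, are told apart by sequence only. The authors trimmed with cutadapt and quantified with Salmon 0.11.2 (mm10), per the submitters' processing notes, and no source used here names the transcript set. The authors deposited estimated counts, TPM and effective lengths for 112092 transcripts. Of these, 111787 were joined to GENCODE M21 (GRCm38), and the rest held 0.084% to 0.123% of reads.

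Estimated counts were summed per gene and rounded. They were tested with edgeR 4.0.16 (quasi-likelihood, TMM scaling, filterByExpr, Benjamini-Hochberg adjustment over 14695 genes; R 4.3.3), checked on simulated data first. Log2 fold changes are KO minus WT, and SE is the log2 fold change over the square root of F. All adjusted p-values are from edgeR unless DESeq2 1.42.0 or limma 3.58.1 is named. Genes with full values are the members that passed, those without overlap, the 12 of smallest p and the 10 of highest mean CPM, and, of the other pathway genes, those that passed and the 2 of smallest p per role. The members and lists were chosen with earlier results of these data known. No pair of libraries was identical. Floors cover counting error only, since PCR reads carry no molecular identifiers, while intervals of log2 fold changes come from the fit and cover the spread between libraries. Promoters are from RefSeq (GRCm38.p6).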

Additional observations from a re-analysis of the deposited data

Results flagged for a closer look

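Among 41 quantities examined in the 4 KO libraries, 3 had 1 library far from the other 3, where chance gives about 1 in 20 groups. Groups of 3, as WT, were not examined. KO replicate 4 had 0.648 CPM of Sfrp1, against 1.91 to 2.16 CPM in KO replicates 1 to 3. It had 48.1 CPM of Axin1, against 27.2 to 30.2 CPM in the others. The summed TPM of Dvl1, Dvl2 and Dvl3 was 33.4 in KO replicate 4, against 18.4 to 20.0 in the others. KO replicate 4 is also the KO library low in Y-linked reads, and its part in these values was not tested.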

How the results depend on the processing

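The count of members called higher was 0 in all 16 alternatives, and that called lower was 0 in 10 of them and 1, Sfrp1, in the other 6: no filter on low counts, the stricter filter (1 CPM in 3 libraries and 50 reads), the length offset, DESeq2, limma voom and the data without KO replicate 4. With 1 library left out in turn the count of lower members ran from 0 to 1. Over all genes, 88 were higher and 244 lower, with 213 higher and 251 lower with the length offset, 379 higher and 567 lower with DESeq2, and 269 higher and 439 lower with limma voom; with 1 library left out the counts ran from 30 to 130 higher and from 157 to 279 lower. Other pathway genes called lower numbered 4 with upper quartile scaling, 4 with the stricter filter, 7 with DESeq2, 6 with limma voom and 0 to 4 with 1 library left out, and those called higher 0 to 1. The replicate numbers did not pair the libraries (same-numbered correlations of -0.047, -0.215 and 0.052). With the number as a block 59 genes were higher and 194 lower, 1 other pathway gene was lower, and Sfrp1 was at -1.66 and Ryk at -0.99 (adjusted p = 0.0977 and 0.101).

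The log2 fold change changed sign in at least 1 alternative for 16 of the 35 tested members, none of which passed. Examples were Bcl9 (-0.22, and 1.20 with the length offset), Nkd1 (0.32, and -0.79 with limma voom), Fzd8 (0.14, and -0.29 in the 5 libraries with high Y-linked expression), Fzd6 (-0.25, and 0.26 with the length offset) and Tle3 (-0.37, and 0.17 without WT replicate 2). The others were Wnt5b, Fzd3, Znrf3, Dvl1, Dvl2, Dvl3, Apc, Tcf7l2, Wls, Tle4 and Bcl9l. Wnt6, which is not among the 45 members, also changed sign (log2 fold change -0.14). With the length offset Bcl9l was at 0.0103, Wls at 0.0739 and Tcf7l2 at 0.10. With limma voom Tle4 was at 0.0387 and Wnt6 at 0.0080. Among the 5 libraries with high Y-linked expression Wls was at 0.0899 and Apc at -0.01. With 1 library left out Wls ran from -0.1227 to 0.1188, Apc from -0.0334 to 0.2322, Tle4 from -0.2344 to 0.0262, Dvl3 from -0.1592 to 0.0123 and Wnt6 from -0.3979 to 0.2966. By share of TPM in place of reads, retained-intron transcripts held 44.6% of Tcf7l2 in KO and 32.5% in WT (24.0% of reads in KO and 16.1% in WT), and coding transcripts 49.3% in KO and 66.7% in WT (74.3% of reads in KO and 83.8% in WT). For Ctnnb1 in WT, retained-intron transcripts held 88.4% of TPM and 75.1% of reads, and coding transcripts 11.6% and 24.9%. The cause of these changes was not tested. Reads limit Axin2, Nkd1, Nkd2, Tcf7, Lef1 and the ligands most, where differences of several-fold lie inside the error.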

Other observations

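Some further pathway genes, chosen after their values were seen, are given as values. Abcb1a, a drug efflux pump named as a Wnt target, was at 0.742 to 1.49 CPM in KO and 2.67 to 4.50 CPM in WT, without overlap (log2 fold change -1.90, SE 0.44, edgeR adjusted p = 0.0566), and DESeq2 called it lower. Amer1, which links Apc to the membrane, was at 35.6 to 43.7 CPM in KO and 19.8 to 34.7 CPM in WT, also without overlap (0.45, SE 0.21, adjusted p = 0.366). Plaur, the urokinase receptor, was at 10.2 to 15.8 CPM in KO and 3.61 to 9.48 CPM in WT (0.73, SE 0.35, adjusted p = 0.371).

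For Bcl9 and Apc the scale decided whether the groups overlapped. In reads they overlapped, with log2 fold changes of -0.22 for Bcl9 and 0.07 for Apc. On the per-length scale Bcl9 was at 9.04, 9.86, 8.54 and 7.63 TPM in KO replicates 1 to 4 and 4.44, 2.92 and 2.33 TPM in WT replicates 1 to 3. Apc was at 7.47, 5.10, 8.01 and 8.94 TPM in KO and 4.06, 3.41 and 3.83 TPM in WT. Summed over all transcripts, all KO libraries lay above all WT libraries for both. Transcripts annotated as neither coding nor retained intron held 69.0% to 80.2% of Bcl9 TPM in KO and 16.9% to 48.6% in WT. For Apc they held 12.7% to 38.7% in KO and 0% to 3.22% in WT. Coding transcripts held 7.01% to 20.2% of Bcl9 TPM in KO and 40.2% to 68.1% in WT. For Apc the coding share was 45.3% to 60.2% in KO and 68.1% to 100% in WT. With the length offset Bcl9 was at 1.20 (adjusted p = 0.0683) and Apc at 0.71 (adjusted p = 0.0802). TPM rests on Salmon's division of reads between long and short transcripts of a gene, and that division was not tested.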
